A study of Mus musculus with 3 samples.

Results

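The genes described here encode the enzymes that hydroxylate prolines in collagen and the chaperones that fold the collagen triple helix: P4ha1, P4ha2, P4ha3, P4hb, Crtap, Ppib, Serpinh1 and Fkbp10. They were chosen by symbol as 8 of the 22072 genes listed, and all 8 were found. RNA was sequenced from ScxGFP positive cells sorted from embryonic hindlimbs of mice of mixed strain background. Scx is the gene of scleraxis, which marks the progenitors of tendons and ligaments, and the cells were sorted for GFP from the ScxGFP reporter, which all 3 groups carry. The groups were hindlimbs of E11.5 (18 pooled), E13.5 (12 pooled) and E15.5 (11 pooled), untreated as far as the labels say, and every pool was sequenced as 1 library. Each stage therefore has 1 library, and there is no replicate check and no p-value, and each difference below is one between 2 libraries of pooled limbs.

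Collagen chains are made in the endoplasmic reticulum (ER), where prolyl 4-hydroxylase converts many of their prolines to 4-hydroxyproline, which stabilises the triple helix at body temperature. The enzyme is a tetramer of catalytic alpha subunits, encoded by P4ha1, P4ha2 or P4ha3, and beta subunits, encoded by P4hb, which is also protein disulfide isomerase, a folding enzyme of many secreted proteins. Crtap (cartilage-associated protein) and Ppib (cyclophilin B, a prolyl isomerase) form a complex with prolyl 3-hydroxylase 1, the product of Lepre1. Serpinh1 encodes HSP47, a chaperone that binds folded procollagen, and Fkbp10 encodes FKBP65, another ER prolyl isomerase. Loss of several of these genes causes brittle bones or joint contractures in people, and tendon is a tissue that secretes large amounts of type I collagen.

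The upstream sequences of these genes were read first, because the 8 genes were all higher at each later stage. RefSeq's table (build GRCm38.p6) held 1 promoter entry for 7 of the 8 genes. Windows of the 250 bases before the annotated start are shown for the 3 alpha subunit genes and for P4hb and Ppib. That pair had the smallest changes of the 8 at the first step and over the span. P4ha1 is at chr10:59323046-59323295 on the plus strand, P4ha2 at chr11:54100674-54100923 on the plus strand, P4ha3 at chr7:100285270-100285519 on the plus strand, P4hb at chr11:120573254-120573503 on the minus strand and Ppib at chr9:66059919-66060168 on the plus strand. None of these 5 windows overlapped an exon of GENCODE's basic set. Each is printed 5′ to 3′ in the direction of its gene, and capitals mark ACGTG and GCGTG (cores bound by hypoxia-inducible factors), CCACG (a part of the ER stress element) and CCAAT (the NF-Y box) on either strand.
P4ha1: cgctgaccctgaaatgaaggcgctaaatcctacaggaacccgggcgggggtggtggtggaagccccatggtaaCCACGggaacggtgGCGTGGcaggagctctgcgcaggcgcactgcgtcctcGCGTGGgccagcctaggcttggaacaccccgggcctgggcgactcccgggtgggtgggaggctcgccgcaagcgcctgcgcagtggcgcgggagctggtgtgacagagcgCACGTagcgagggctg
P4ha2: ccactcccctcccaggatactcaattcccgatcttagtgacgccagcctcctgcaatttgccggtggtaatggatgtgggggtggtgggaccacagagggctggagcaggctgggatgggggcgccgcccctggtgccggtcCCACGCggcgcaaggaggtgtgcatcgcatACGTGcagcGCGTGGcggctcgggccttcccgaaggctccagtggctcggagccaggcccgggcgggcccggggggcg
P4ha3: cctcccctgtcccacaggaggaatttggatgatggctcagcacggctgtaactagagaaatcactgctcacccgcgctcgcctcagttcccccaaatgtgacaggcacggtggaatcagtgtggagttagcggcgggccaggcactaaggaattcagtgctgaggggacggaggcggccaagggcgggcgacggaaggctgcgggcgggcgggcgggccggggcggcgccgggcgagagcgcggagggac
P4hb: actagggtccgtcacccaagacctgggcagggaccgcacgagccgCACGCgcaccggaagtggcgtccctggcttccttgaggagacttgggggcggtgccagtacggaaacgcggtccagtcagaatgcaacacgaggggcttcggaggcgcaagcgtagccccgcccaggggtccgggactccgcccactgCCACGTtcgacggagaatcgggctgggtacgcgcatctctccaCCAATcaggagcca
Ppib: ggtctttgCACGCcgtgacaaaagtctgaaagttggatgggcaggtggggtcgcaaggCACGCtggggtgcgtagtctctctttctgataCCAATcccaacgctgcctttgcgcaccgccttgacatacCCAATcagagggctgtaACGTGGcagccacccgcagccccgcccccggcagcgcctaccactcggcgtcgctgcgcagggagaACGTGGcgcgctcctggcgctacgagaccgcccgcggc
ACGTG was found in 5 of the 7 windows (P4ha1, P4ha2, P4hb, Ppib and Serpinh1), against 16.7% of 32536 distinct windows of the same length. GCGTG was in 5 of 7 (Crtap, P4ha1, P4ha2, P4hb and Ppib), against 28.3%. CCACG was in 6 of 7, with P4ha3 as the exception, against 28.6%. CCACG reads CGTGG on the other strand, so a run of letters in capitals can count for 2 motifs, as in the P4ha2 window. CCAAT was in the windows of P4hb and Ppib only, 2 of 7, against 33.8% of all windows. No window held the full ER stress element, which is CCAAT and CCACG with 9 bases between them (0.114% of all windows), or the heat shock core GAANNTTC (6.72%). TATAAA was in the Crtap window (12.3%). The P4ha3 window held none of the 7 motifs searched. The shown windows are rich in G and C, with 65.2% to 70.0% against a median of 52.4% over all windows. The Serpinh1 window was at 63.6% and the Crtap window at 53.6%. The shares over all windows are not matched for base composition, which limits the comparison of motif counts. A match describes letters and says nothing of binding.

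The 3 libraries carried about 12100000 to 16900000 reads on the listed transcripts, as estimated from read coverage. Values are in FPKM, mapped fragments scaled for transcript length and library size, so that genes can be compared within a library. Intervals are approximate 95% Poisson intervals for counting error alone. A change is the difference of log2(FPKM + 1) between 2 libraries, and a change of at least 1, or 2-fold, was counted. Among 8 tendon markers, Scx was at 375, 410 and 213 FPKM in stage order, and was lower at E15.5 than at E11.5 (log2 change -0.81). The other 7 were at least 2-fold higher over the span, with a median of 5.33 for the whole list. Tnmd, the tenomodulin gene, was at 0, 7.57 and 56.8 FPKM, and 4 of the 8 reached 1 FPKM at E11.5. Markers of other cell types also moved with stage. The 8 skeletal muscle markers summed to 11.3, 65.5 and 227 FPKM, the 7 cartilage markers to 139.9, 222 and 327, and the 6 bone markers to 5.53, 19.4 and 16.2. Actc1 was the largest part of the muscle sum in each library (5.35, 39.3 and 164 FPKM), and Runx2 of the bone sum (3.71, 13.4 and 6.60). The bone markers Bglap and Spp1 were below 1 FPKM in every library and lower at E15.5 than at E11.5. The largest part of the cartilage sum in each library was Col2a1 (67.3, 138 and 230 FPKM), which is also one of the 17 collagens below. Sox9, the gene of the cartilage regulator, went the other way, at 56.2, 41.0 and 22.5 FPKM (log2 change -1.28 over the span). At E11.5 2 of 8 muscle, 3 of 7 cartilage and 1 of 6 bone markers reached 1 FPKM, and at E15.5 8, 7 and 4 did. The bone marker Ibsp was at 0 at E11.5, and no muscle or cartilage marker was at 0 in any library. Endothelial markers (6 genes, with Cldn5 at 0 at E13.5) summed to 0.747, 1.999 and 6.21 FPKM. Leukocyte markers (5 genes) summed to 0.909 to 1.66 FPKM, with Ptprc, Aif1 and Tyrobp at 0 at E11.5 and Tyrobp also at E13.5. Epidermal markers (5 genes) summed to 1.19, 4.10 and 8.21 FPKM, and Schwann cell and neuron markers (5 genes) to 2.81, 2.25 and 1.97. A list of 10 housekeeping genes had a median log2 change of -0.18 in the first step and 0.21 in the second, or 0.01 in the second with libraries at a common FPKM sum. Cartilage and bone cells are known to use the same collagen enzymes, and the part of these cells in the values below was not tested. More cells of a type and more RNA per cell cannot be told apart in such libraries.

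All 8 genes were higher at E13.5 than at E11.5 and higher again at E15.5. Of all 10928 genes compared at both steps, 34.3% did so. In the first step, E13.5 against E11.5, 6 of the 8 passed 2-fold upward, where 6% of all genes were, and the median log2 change was 1.14 against 0.07 over all genes. In the second, E15.5 against E13.5, 2 of the 8 did (all genes 3.58%), with a median of 0.90 against 0.04. Over the whole span, from E11.5 to E15.5, all 8 were at least 2-fold higher (all genes 12.6%), with a median of 2.07 against 0.07. By any amount, 57.4%, 55.1% and 55.6% of all genes were higher in the first step, the second step and the span. None of the 8 was at least 2-fold lower in these comparisons, against 1.02%, 0.713% and 2.14% of all genes. Crtap and P4ha3 had the largest changes over the span, 2.89 and 2.88, and Ppib had the smallest, 1.05. When the libraries were scaled to a common FPKM sum, their mean, Ppib was at 0.88 and below 2-fold.

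**Figure D1:**
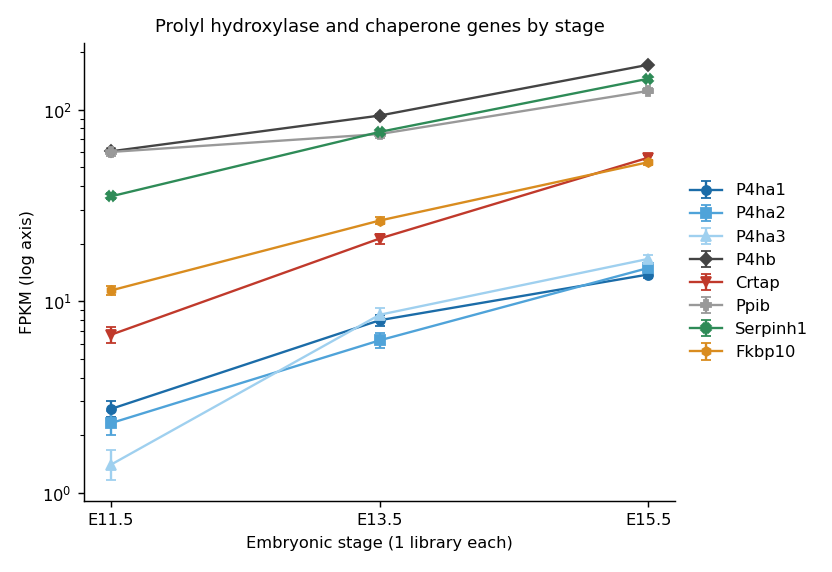
FPKM of the 8 genes (log axis) at E11.5, E13.5 and E15.5, with 1 library per stage as a point and bars for approximate 95% counting intervals. P4hb, Ppib and Serpinh1 lie highest in every library and the 3 alpha subunit genes lowest, and every line is higher at each later stage.

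The levels spanned a wide range within each library. At E11.5 P4hb and Ppib were highest, at 60.7 and 60.2 FPKM, and their counting intervals overlapped. Serpinh1 followed, then Fkbp10, Crtap, P4ha1, P4ha2 and P4ha3, with only the intervals of P4ha1 and P4ha2 overlapping among neighbours. At E13.5 Serpinh1 stood level with Ppib within counting error, and P4ha3 with P4ha1. At E15.5 the order was P4hb, Serpinh1, Ppib, Crtap, Fkbp10, P4ha3, P4ha2 and P4ha1, where Crtap with Fkbp10 and P4ha2 with P4ha1 overlapped. P4hb, Ppib and Serpinh1 together made up 86.4%, 77.7% and 74.1% of the summed FPKM of the 8 genes in stage order. By rank among all listed genes, P4hb was at 338, 195 and 138, Serpinh1 at 614, 247 and 155, and Crtap at 4285, 1249 and 424.

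P4ha1 encodes the alpha subunit regarded as the most widespread form (NM_011030, mm9, chromosome 10, 58786044 to 58836052). In stage order it was at 2.74 FPKM (counting interval 2.48 to 3.02), 7.96 (7.47 to 8.48) and 13.8 (13.2 to 14.4). The log2 changes were 1.26 and 0.72, so the earlier step was the larger for this gene. Its change at the first step was above that of 96.1% of compared genes.

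P4ha2 encodes the alpha subunit known to be prominent in cartilage and bone cells (chromosome 11, 53914426 to 53945169). The sum of its 2 transcripts was at 2.31 FPKM (1.9999 to 2.66), 6.25 (5.68 to 6.87) and 14.9 (14.1 to 15.8). Its changes were nearly even, 1.13 at each step, and it was one of the pair of genes past 2-fold at both, with Crtap. With libraries scaled to the mean of their FPKM sums its second change was 0.95, below 2-fold, and Crtap, at 1.57 and 1.16, was the one gene of the 8 past it at both. Of all genes, 1.63% passed 2-fold at both steps. The transcript NM_001136076 (2278 bases) was at 1.36, 5.01 and 11.2 FPKM and NM_011031 (2284 bases) at 0.949, 1.24 and 3.72. The first of them took 58.9%, 80.1% and 75.1% of the gene's FPKM in stage order. The 2 transcripts share a locus and nearly all of their length, so this division is an estimate of the authors' processing, and the files give no error for it.

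P4ha3 encodes the third alpha subunit (NM_177161, chromosome 7, 107434030 to 107468209). Its level was 1.405 FPKM in the E11.5 library (1.17 to 1.68), the lowest of the 8. In the E13.5 library it was 8.51 (7.84 to 9.21), and in the E15.5 library 16.6 (15.8 to 17.5), the highest of the alpha subunit genes. The ratio of FPKM was 6.06 at the first step and 1.957 at the second. On the log2(FPKM + 1) scale these were 1.98 and 0.89, and the first was above the change of 98.8% of compared genes.

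Set against each other, the 3 alpha subunit genes became more alike in level. In stage order P4ha1 made up 42.5%, 35.0% and 30.4% of their summed FPKM. P4ha3 made up 21.7%, 37.4% and 36.7%, so its larger share was already present at E13.5. P4ha2 made up 35.8%, 27.5% and 32.9%. The sum itself was 6.46, 22.7 and 45.4 FPKM. When only the most abundant transcript of each gene was used, P4ha2 had the smallest share of the 3 in every library (24.7%, 23.3% and 26.9%).

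P4hb encodes the beta subunit (NM_011032, chromosome 11, 120421618 to 120434250). It was at 60.7 FPKM (59.1 to 62.3), 93.3 (91.1 to 95.4) and 171.7 (169.1 to 174.4), with log2 changes of 0.61 and 0.87. Neither step reached 2-fold, and over the span the gene was 2.83 times higher. P4hb was in excess of the alpha subunit genes in every library. In stage order it stood at 9.40, 4.10 and 3.78 times their sum.

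Crtap (NM_019922, chromosome 9, 114284249 to 114299830) was at 6.69 FPKM (6.07 to 7.36), 21.3 (20.03 to 22.6) and 56.2 (54.4 to 58.1). Its log2 changes were 1.53 and 1.36, the largest of the 8 at the second step. Its enzyme partner Lepre1 was at 4.71, 15.1 and 39.1 FPKM, with changes of 1.49 and 1.32. The ratio of Crtap to Lepre1 was 1.42, 1.41 and 1.44 in stage order, while each gene was over 8 times higher at E15.5 than at E11.5 (8.399 and 8.29). Ppib (NM_011149, chromosome 9, 65907976 to 65914436), the third gene of this complex, was at 60.2 FPKM (57.7 to 62.8), 74.7 (71.6 to 77.9) and 125 (122 to 129). Its changes of 0.31 and 0.74 were the smallest of the 8 at the first step and close to the smallest at the second, where P4ha1 was at 0.72. The ratio of Ppib to Crtap was 8.999, 3.51 and 2.23, and that of Ppib to Lepre1 was 12.8, 4.95 and 3.21. The products of P4hb and Ppib also serve proteins other than collagen. Together these 2 genes were at 120.9, 167.9 and 297 FPKM, and the other 6 at 59.9, 147 and 300.1, so that the sums were nearly equal at E15.5.

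**Figure D2:**
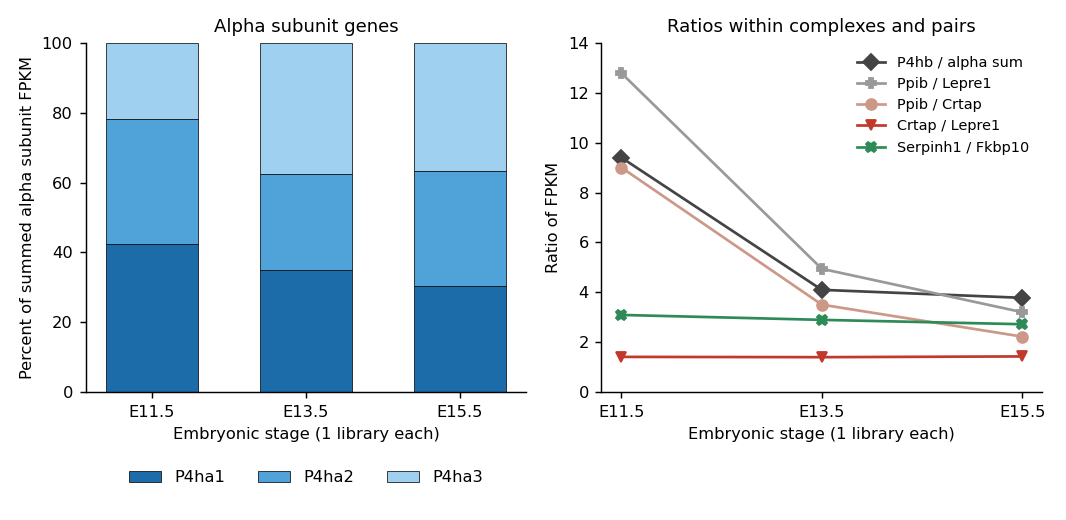
Left, the percent of the summed alpha subunit FPKM from P4ha1, P4ha2 and P4ha3 at each stage. Right, ratios of FPKM by stage with 1 library each, in which Crtap over Lepre1 stays between 1.41 and 1.44 while Ppib over Lepre1 goes from 12.8 to 3.21.

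Serpinh1, the gene of the procollagen chaperone HSP47 (chromosome 7, 106493885 to 106501749), was at 35.3 FPKM (34.1 to 36.6), 76.6 (74.6 to 78.7) and 145 (143 to 148). Its log2 changes were 1.10 and 0.91. The transcript NM_001111044 carried 89.1%, 91.4% and 93.0% of the gene's FPKM. NM_009825 was at 1.92, 4.03 and 7.26 FPKM and NM_001111043 at 1.93, 2.55 and 2.97. These 3 transcripts share a locus, so this division is likewise an estimate of the authors' processing.

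Fkbp10 (chromosome 11, 100277008 to 100286154) was at 11.4 FPKM (10.7 to 12.1), 26.4 (25.3 to 27.6) and 53.3 (51.8 to 54.7). Its changes were 1.14 and 0.99, and the second passed 2-fold, at 1.01, with a pseudocount of 0.1. Nearly all of it was assigned to NM_010221 (2603 bases), and the other transcript, NM_001163481 (2600 bases), was at 0.000353 FPKM or less. The 2 share a locus and nearly the same length, so this division is an estimate of the authors' processing. Serpinh1 and Fkbp10 kept a similar proportion, with a ratio of 3.10, 2.90 and 2.73. The loci of 2 of the 8 genes overlap a neighbour, Ppib with Snx22 and Fkbp10 with Nt5c3l, and those neighbours were at no more than 0.842 FPKM in any library.

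A list of 17 collagen genes, whose products these proteins serve, had a median log2 change of 3.72 over the span (16 measured), against 2.07 for the 8 genes. The list does not hold every collagen gene, and Col9a1, placed with the cartilage markers, was at 0.51. The 16 were not all above 2.07, with Col27a1 at 1.23, Col4a1 at 1.75, Col2a1 at 1.76, Col4a2 at 2.02 and Col24a1 at 2.05. Col1a1, which encodes the alpha 1 chain of type I collagen, was at 16.6, 215 and 1322 FPKM, a log2 change of 6.23 over the span, and Col1a2, its partner chain, at 48.9, 216 and 846, a change of 4.08. For every 100 FPKM of Col1a1, P4hb was at 366, 43.3 and 12.99 FPKM in stage order. Ppib was at 363, 34.7 and 9.49 per 100 FPKM of Col1a1, and Serpinh1 at 213, 35.6 and 11.0. At E11.5 these 3 genes were each above Col1a1 in the same library, and at E13.5 and E15.5 they were below it. Fkbp10 was at 68.7, 12.3 and 4.03 per 100 FPKM of Col1a1 and Crtap at 40.3, 9.87 and 4.25. P4ha1 was at 16.5, 3.70 and 1.04, P4ha2 at 13.9, 2.90 and 1.13, and P4ha3 at 8.46, 3.95 and 1.26.

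All 8 genes were lower relative to Col1a1 at E15.5 than at E11.5. Col1a1 moved by 6.23 and Col1a2 by 4.08 over the span, against a median of 0.07 over all genes. Most genes were therefore lower relative to either, and the trait is not particular to the 8. The difference from Col1a1 on the log2(FPKM + 1) scale moved by a median of -4.16, from -3.34 for Crtap to -5.19 for Ppib. On the FPKM scale the relative level was lower by 38.3 times for Ppib, 28.2 for P4hb, 9.49 for Crtap and 6.72 for P4ha3. The size of this shift depends on the reference. Against Col1a2 the median was -2.01, and against the sum of 17 collagen genes it was -2.05, with all 8 genes lower in each case. That sum was 224, 1034 and 3905 FPKM in stage order. The 8 genes together were at 181, 315 and 597 FPKM, which is 80.6, 30.5 and 15.3 for every 100 FPKM of the 17 collagens. On the same scale a list of 16 other genes, most of them of collagen modification, summed to 32.7, 17.8 and 9.76. That list also holds P4htm and the transcription factor gene Creb3l1 (0.233, 11.0 and 37.0 FPKM). The 22 general folding genes of the ER summed to 331, 97.6 and 33.7. Against the summed collagens and against Col1a2, P4ha3 was an exception at the first step. It was at 0.626, 0.823 and 0.426 per 100 FPKM of the 17 collagens and 2.87, 3.93 and 1.97 per 100 FPKM of Col1a2.

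**Figure D3:**
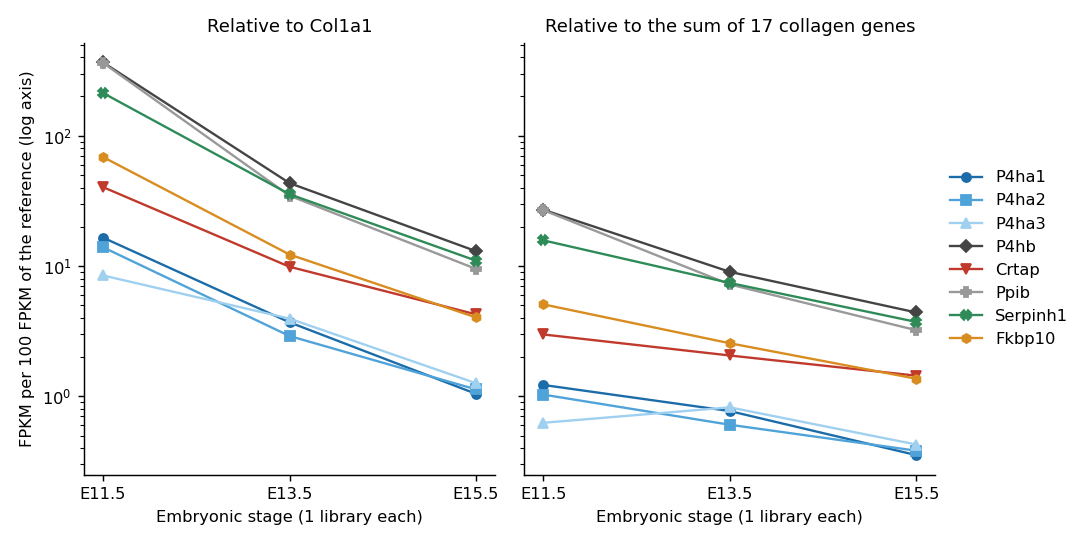
FPKM of each of the 8 genes per 100 FPKM of Col1a1 (left) and of 17 summed collagen genes (right), on a log axis, by stage with 1 library each. All lines are lower at E15.5 than at E11.5, and P4ha3 on the right is the line that is higher at E13.5 (0.823) than at E11.5 (0.626).

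Other genes of collagen modification moved in the same direction. Of 15 measured genes on that list, 7 passed 2-fold upward in the first step, 7 in the second and 14 over the span, with none downward, and the median change over the span was 1.83. Among all genes 6%, 3.58% and 12.6% passed 2-fold upward in these comparisons. The lysyl hydroxylase genes, whose enzymes modify collagen lysines before crosslinking, were at 5.64, 13.2 and 31.6 FPKM for Plod1, 11.7, 22.6 and 36.9 for Plod2, and 6.35, 8.97 and 15.51 for Plod3. Among relatives of Lepre1, Leprel4 was at 4.62, 11.0 and 21.8 FPKM and Leprel1 at 2.01, 3.62 and 9.68. Among relatives of Fkbp10, Fkbp9 was at 9.77, 38.3 and 74.6 FPKM, Fkbp14 at 3.57, 11.2 and 25.2, Fkbp7 at 3.27, 7.55 and 17.2, and Fkbp11 at 2.31, 3.68 and 10.05. The largest change on the list was that of Creb3l1, which encodes an ER-anchored transcription factor known to act on collagen genes in bone. It was at 0.233, 11.0 and 37.0 FPKM in stage order, a log2 change of 4.94 over the span. The smallest was that of P4htm, a transmembrane prolyl hydroxylase that is not a collagen enzyme, at 0.900, 1.26 and 1.12 FPKM.

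General folding genes of the ER differed less. Over the span 6 of the 21 measured passed 2-fold upward (all genes 12.6%) and none downward (2.14%), with a median of 0.72 against 0.07. Hspa5 (BiP), the main ER chaperone, was at 150 FPKM, 222 and 248, Hsp90b1 (GRP94) at 175, 235 and 289, and the disulfide isomerase gene Pdia3 at 83.4, 109 and 159. The 6 genes past 2-fold were Ppic, Txndc5, Pdia5, Erp29, Sel1l and Dnajc3, and 5 were past it under each of the 3 rescalings. Ppic, the gene of cyclophilin C and a relative of Ppib, was at 14.9, 45.2 and 78.2 FPKM, with a change of 2.32 over the span against 1.05 for Ppib. Txndc5, a disulfide isomerase gene, was at 9.63, 17.7 and 38.1 FPKM, and Pdia5 at 2.59, 5.31 and 11.3. Genes of the unfolded protein response, which is switched on when ER folding is overloaded, had a median of 0.49. The count past 2-fold was 3 with a pseudocount of 0.1, 2 at a common sum of 1000000 and 0 among genes that averaged 5 FPKM. Without these changes it was 1 of 11, against 12.6% of all genes. That gene was Eif2ak3 (PERK, an ER stress sensor), at 1.71, 2.45 and 5.77 FPKM, while Xbp1 was at 9.90, 13.54 and 16.8 and Herpud1 at 3.79, 4.78 and 4.78. Cytosolic and mitochondrial chaperones had a median of -0.33 over the span, and 2 of 14 were higher at all (all genes 55.6%). Ppia, the cytosolic cyclophilin, was at 1245, 861 and 973 FPKM.

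P4ha1 and P4ha2 are known targets of hypoxia-inducible factors, so genes of the hypoxia response were examined beside them. At the first step none of 14 measured genes was at least 2-fold different, against 6% of all genes upward and 1.02% downward. With a pseudocount of 0.1 or at a common sum of 1000000, 2 genes of the list were. P4ha1 and P4ha2 were at 1.26 and 1.13 at this step. The median of the measured hypoxia genes was 0.30. It was 0.08 with a mean of at least 5 FPKM, 0.11 with no filter and 0.17 with the most abundant transcripts. At the second step 13 of 14 were higher (all genes 55.1%), with a median of 0.49. That median was 0.34 at a common sum of 1000000 and 0.31 with libraries rescaled to the mean of their sums. It was 0.37 with no filter, 0.53 with the most abundant transcripts and 0.61 under the filter at 5 FPKM. The count of 13 was made without rescaling. Ndrg1 and Egln3 were past 2-fold there. The number past it was 3 at a common sum of 1000000, 1 at the mean of the sums and 0 under the filter at 5 FPKM. P4ha1 was at 0.72 and P4ha2 at 1.13. Aldoa (0.74) and Ldha (0.66), genes of glycolysis, were near P4ha1, as were Slc2a1 (0.64), Pgk1 (0.62) and Vegfa (0.61). Further below it were Pdk1 (0.37), Egln1 (0.36), Pfkfb3 (0.18), Hif1a (0.11), Bnip3 (0.09), Egln2 (0.02) and Ankrd37 (-0.44). Over the span 3 of 14 were past 2-fold (all genes 12.6%), with a median of 0.61, and none of the 3 averaged 5 FPKM. These were Ndrg1 at 0.430, 1.48 and 6.48 FPKM, Egln3, a hydroxylase of the factors themselves, at 0.840, 1.34 and 3.90, and Pdk1 at 2.17, 5.10 and 6.90. Hif1a was at 12.3, 17.8 and 19.3 FPKM and Ldha at 98.3, 88.9 and 141.

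**Figure D4:**
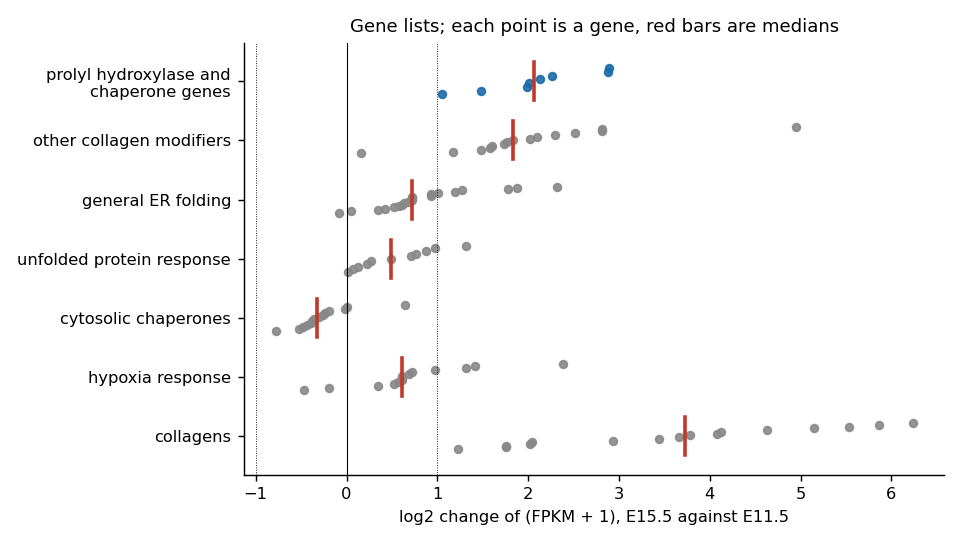
Change of log2(FPKM + 1) from E11.5 to E15.5 for the measured genes of 7 lists, 1 point per gene, with list medians as red bars and dotted lines at 2-fold. The 8 genes described here have a median of 2.07, between the 0.72 of general ER folding genes and the 3.72 of the listed collagens.

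Genes with the most similar pattern were sought among 3050 others with a mean of at least 10 FPKM, by the distance between the 2 step changes on the log2(FPKM + 1) scale over the 3 libraries. Closest to Serpinh1 were Leprel4 (distance 0.00668, changes of 1.10 and 0.92), Lhfpl2 (0.0708) and Igf2r (0.0760). Closest to P4ha1 were Fbn2, the fibrillin-2 gene (distance 0.0691, 25.2, 61.8 and 97.9 FPKM), Itm2b (0.0922) and Fn1, the fibronectin gene (0.141). Among the closest to P4ha2 were Plod1 (0.0771) and Fam114a1 (0.103). With 3 libraries such closeness describes 2 numbers per gene.

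**Figure D5:**
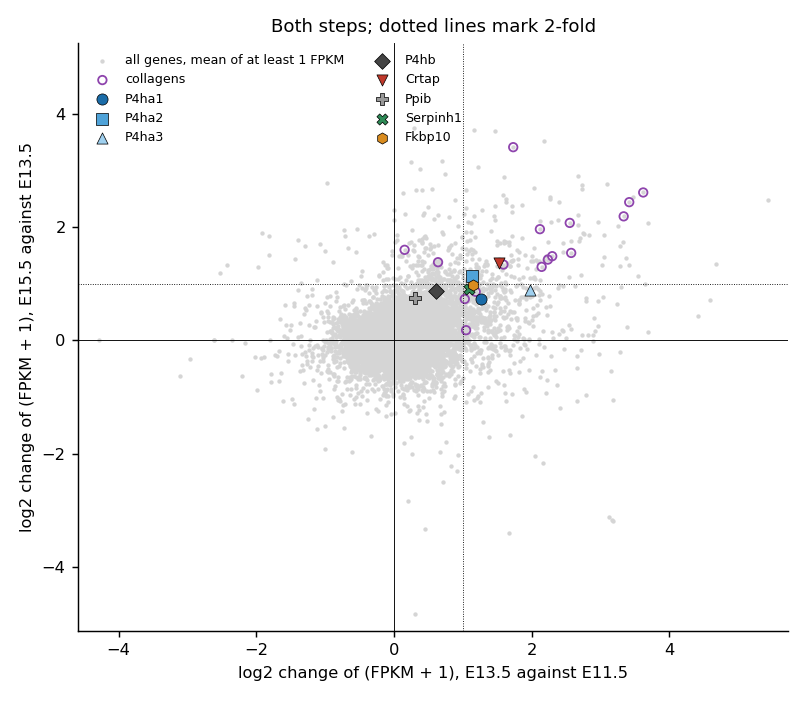
Change of log2(FPKM + 1) at the first step (horizontal) and the second step (vertical) for all genes with a mean of at least 1 FPKM (grey), listed collagens (open circles) and the 8 genes (coloured). All 8 lie above 0 on both axes, Crtap and P4ha2 lie past 2-fold on both, and P4hb and Ppib lie nearest to the grey cloud.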

How the data were processed

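RNA sequencing values of 3 libraries, 1 per stage, were used. Sorted cells gave total RNA that a NuGEN Ovation RNA-Seq v2 assay turned into cDNA, per the labels' protocols. The noise of such amplification lies outside the counting intervals. The deposited values are FPKM per RefSeq transcript, made by the authors, with a coverage value for each transcript. Over transcripts above 1 FPKM, the median ratio of coverage to FPKM was 1.61, 1.32 and 1.58 in stage order. The submitters' processing notes list Bowtie 0.12.7, TopHat 1.4.1 and the build mm9 without saying how each was used. Strand setting and annotation release: not given in the sources used here.

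FPKM was summed over the transcripts of a symbol with Python 3.11.15 and pandas 2.3.3. All 12 transcript rows of the 8 genes had the status OK. Genes entered a comparison with a mean of at least 1 FPKM over the 3 libraries and status OK for every transcript in both libraries compared. Changes are on the log2(FPKM + 1) scale, which understates changes of low genes. Coverage was turned into reads at 43.5 bases per read, the most frequent value among transcripts with very little coverage, and Poisson intervals rest on this estimate. At 1 FPKM a transcript of 2000 bases then has a counting error of 11.6%, 12.8% and 11.7% in stage order. Locus starts in the files count from 0 and are given here from 1. The calculation was tested on simulated data. The 8 genes and the 16 other gene lists were chosen with earlier results of these data known. Besides the 8 genes and the type I collagen genes, genes of the lists past 2-fold, a few direct partners and the nearest patterns were named. The result of 1 marker list and 1 nearest pattern are not reported here. Alternatives were a pseudocount of 0.1, no filter, a mean of at least 5 FPKM, 3 rescalings, the most abundant transcript of each gene and other reference genes.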

Additional observations from a re-analysis of the deposited data

How the results depend on the processing

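No paired analysis was possible because each stage has 1 library. The number of the 8 genes past 2-fold was 6 at the first step under all alternatives run. Over the span it was 8, or 7 without Ppib under each of the 3 rescalings. At the second step it was 2 (Crtap and P4ha2), or 3 with a pseudocount of 0.1, where Fkbp10 was at 1.01. It was 1 (Crtap) when libraries were rescaled to the mean of their sums, an alternative chosen after seeing the data. The median change of the 8 genes was 1.301 at the first step and 2.25 over the span with a pseudocount of 0.1. Rescaled to a sum of 1000000 it was 1.33 at the first step and 0.74 at the second. Rescaled to the mean of the sums it was 0.71 at the second step and 1.91 over the span. The median shift relative to Col1a1 was -4.06 with a pseudocount of 0.1, -2.01 relative to Col1a2 and -2.05 relative to the summed collagens. With the most abundant transcript of each gene, P4ha1 made up 49.8% of the alpha subunit sum at E11.5 and 33.1% at E15.5, P4ha2 24.7%, 23.3% and 26.9% in stage order, and P4ha3 25.5%, 39.6% and 39.96%. These alternatives change the weight of low values, the scale or the transcripts summed, and beyond that the cause was not tested. Over all genes, those past 2-fold upward and downward in the second step were 391 and 78, and 283 and 139 with libraries rescaled to the mean of their sums, which moved the median change of all genes from 0.04 to -0.13. The counts became 720 and 515 at a common sum of 1000000, 584 and 189 at a pseudocount of 0.1, and 214 and 42 under the filter at 5 FPKM. Under the same 3 settings the first step, with 656 and 112, gave 1748 and 350, 1154 and 191, and 381 and 43, and the span, with 1380 and 234, gave 2310 and 913, 1838 and 431, and 712 and 124. Depth limits the alpha subunit genes most, with 123 estimated reads for P4ha3 at E11.5.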
